A study of Mus musculus with 48 samples.

Results

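The cyclin-dependent kinase (CDK) inhibitors are 7 genes, Cdkn1a, Cdkn1b, Cdkn1c, Cdkn2a, Cdkn2b, Cdkn2c and Cdkn2d, taken by symbol from a bulk RNA-seq table of 36854 mouse genes, and all 7 had enough counts to be tested in every comparison. The table covers 48 soft-tissue sarcomas, 16 allografts and 32 primary tumours, all on the 129/SvJae background. Primary tumours were induced at 6 to 10 weeks of age in p53FL/FL mice, whose p53 alleles are flanked by loxP sites, by an adenovirus carrying Cre recombinase in the gastrocnemius (calf) muscle and then 300 µg of the carcinogen MCA. Allografts grew from 50000 cells of 1 line, 402230, put into the same muscle of syngeneic mice, so all of them represent a single line, and no age is given for their hosts in the sources used here. At a volume of about 150 mm3 each mouse received 200 µg of muDX400, a mouse PD-1 antibody (PD-1 is a receptor that restrains T cells), or an isotype control, and its hind limb then received 0 or 20 Gy of X-rays. Every tumour was taken on day 3, giving 8 groups with 4 tumours in each allograft group and 8 in each primary group. Cre was delivered by local injection, so host cells of the tumour can keep intact p53. The comparisons below address how radiation, PD-1 blockade, both, and the kind of tumour relate to the level of these inhibitors.

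CDK inhibitors bind cyclin-dependent kinases, or their complexes with cyclins, and slow the passage of cells through the division cycle. Cdkn1a (p21), Cdkn1b (p27) and Cdkn1c (p57) form the Cip/Kip family, which acts on many cyclin-CDK complexes. Cdkn2a (p16Ink4a), Cdkn2b (p15), Cdkn2c (p18) and Cdkn2d (p19Ink4d) form the Ink4 family, which acts on Cdk4 and Cdk6. Cdkn1a is a textbook target of p53 after DNA damage. Cdkn2a also encodes p19Arf, an activator of p53, from another first exon, and counts per gene merge both products.

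The 5 upstream windows printed here belong to the member that moved most after radiation (Cdkn1a) and to a pair of neighbouring members whose levels varied together (Cdkn2a and Cdkn2b). Each holds the 250 bases before a transcript start in RefSeq (GRCm38.p6), 5′ to 3′ on the gene's strand. RefSeq gave 9 such windows for 6 of the 7 members. Capitals mark a spaced pair of CATG cores, CATGNNNNNNCATG, the arrangement at the centre of p53 sites, or the GC box GGGCGG on either strand.
Cdkn1a, upstream start, chr17:29090729-29090978, + strand: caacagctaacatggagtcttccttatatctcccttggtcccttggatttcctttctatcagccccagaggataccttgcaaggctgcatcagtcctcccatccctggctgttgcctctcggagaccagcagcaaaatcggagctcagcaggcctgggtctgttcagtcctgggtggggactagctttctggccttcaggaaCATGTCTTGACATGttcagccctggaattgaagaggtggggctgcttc
Cdkn1a, downstream start, chr17:29093519-29093768, + strand: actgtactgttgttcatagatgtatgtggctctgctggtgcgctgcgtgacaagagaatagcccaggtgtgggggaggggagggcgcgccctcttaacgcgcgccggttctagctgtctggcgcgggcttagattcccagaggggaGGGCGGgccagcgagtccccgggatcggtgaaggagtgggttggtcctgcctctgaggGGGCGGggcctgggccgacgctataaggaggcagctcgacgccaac
Cdkn2a, upstream start, chr4:89294620-89294869, - strand: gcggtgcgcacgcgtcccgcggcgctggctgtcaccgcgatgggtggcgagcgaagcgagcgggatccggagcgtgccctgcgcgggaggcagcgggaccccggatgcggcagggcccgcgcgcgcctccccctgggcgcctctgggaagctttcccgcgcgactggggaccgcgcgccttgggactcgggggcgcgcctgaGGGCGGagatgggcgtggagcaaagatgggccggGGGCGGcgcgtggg
Cdkn2a, downstream start, chr4:89282193-89282442, - strand: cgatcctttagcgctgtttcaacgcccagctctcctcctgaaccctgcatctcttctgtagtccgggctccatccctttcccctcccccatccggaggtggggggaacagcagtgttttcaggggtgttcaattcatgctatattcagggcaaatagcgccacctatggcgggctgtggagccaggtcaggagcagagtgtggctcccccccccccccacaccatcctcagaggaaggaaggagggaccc
Cdkn2b, chr4:89311033-89311282, - strand: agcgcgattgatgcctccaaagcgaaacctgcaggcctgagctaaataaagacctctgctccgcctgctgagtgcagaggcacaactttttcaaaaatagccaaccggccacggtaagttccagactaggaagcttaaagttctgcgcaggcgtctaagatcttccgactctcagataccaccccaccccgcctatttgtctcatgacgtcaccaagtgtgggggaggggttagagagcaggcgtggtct
The upstream Cdkn1a window held 1 CATG pair, whose first base lies 48 bases before the start, and the other 8 windows held 0. Over all 32851 windows of this length, 161 (0.490%) held such a pair and 10756 (32.7%) held a GC box. Both the downstream Cdkn1a window and the upstream Cdkn2a window held 2 GC boxes. The Cdkn1a starts lie 2790 bases apart and those of Cdkn2a 12427 bases apart. Such matches describe letters only, and counts per gene do not show which start was used.

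On the mm10 build (GENCODE M21 annotation) Cdkn1a (ENSMUSG00000023067) spans chr17:29090976-29100727, Cdkn1b (ENSMUSG00000003031) chr6:134920401-134925513 and Cdkn1c (ENSMUSG00000037664) chr7:143458339-143461050. Cdkn2a (ENSMUSG00000044303, chr4:89274471-89294653) and Cdkn2b (ENSMUSG00000073802, chr4:89306299-89311039) are neighbours with 11645 bases between them. Cdkn2c (ENSMUSG00000028551) lies at chr4:109660876-109667189 and Cdkn2d (ENSMUSG00000096472) at chr9:21288410-21291407. Exons of Cdkn1c overlap those of Gm44732 on the opposite strand, a gene with 2457 counts over the 48 tumours, and exons of Cdkn1a overlap those of AC167363.2, also opposite and not analysed here. Whether counting used strand is not given in the sources used here, so reads of those overlaps cannot be assigned with certainty.

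Totals ran from 31.8 to 54.0 M counts per tumour. Levels are given as CPM, counts per M counts of a library after TMM scaling, a correction for library composition. Trp53, the deleted gene, was counted in all 48 tumours, at 25.7 to 45.8 CPM in allografts and 20.2 to 60.7 CPM in primary tumours. Because counts are summed over all exons and host cells keep the gene, these levels check no label. None of the markers of mesenchyme and sarcoma, leukocytes, macrophages, neutrophils, endothelium, skeletal muscle or myogenic cells was at 0 throughout any group. The summed skeletal muscle markers ranged from 78.4 to 20109 CPM in the 0 Gy isotype allografts alone. In bulk tissue, fewer cells of a type and less RNA per cell cannot be told apart.

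A set of 3 tumours with extreme values of these genes is named where it bears on a result. In rank correlation with the rest of its group over all genes, replicate 4 (mean 0.902) and replicate 5 (0.925) of the primary 20 Gy anti-PD-1 group were the lowest of all 48, and replicate 2 of the allograft 20 Gy anti-PD-1 group (0.958) was the lowest allograft. The next were close, at 0.930 for primary 20 Gy anti-PD-1 replicate 1 and 0.961 for allograft 20 Gy isotype replicate 1, so rank correlation alone does not set these 3 apart. They were first noticed for their values of these very genes and only then found to be lowest in rank correlation. A call gained without them is therefore no support.

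Compared per kilobase of exon, Cdkn2a was the most abundant member in both kinds, with a median of 214 CPM per kb in allografts and 562 in primary tumours. The other members had medians of 11.1 to 35.8 CPM per kb in allografts and 9.86 to 49.96 in primary tumours. Over all tumours Cdkn1b spanned least, its highest allograft being 1.86 times the lowest and its highest primary tumour 2.91 times. In the primary tumours Cdkn2a spanned 60.7-fold and Cdkn1c 43.8-fold, against 8.10-fold and 7.03-fold in the allografts. Without the 3 tumours Cdkn2a spanned 4.42-fold in primary tumours and 2.79-fold in allografts, and Cdkn1c 24.5-fold and 7.03-fold. In the allografts Cdkn2d then spanned least, at 1.58-fold against 1.86-fold for Cdkn1b. The plot of members by tumour shows these ranges on the CPM scale.

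Ordered by group mean, Cdkn1a split by dose, Cdkn1c, Cdkn2a and Cdkn2b by tumour kind. For Cdkn1a the 4 irradiated groups came first, from 247 CPM (primary, anti-PD-1) to 197 CPM (allograft, isotype), and the unirradiated groups followed, from 68.8 CPM (allograft, anti-PD-1) to 45.3 CPM (primary, anti-PD-1). The step from 197 to 68.8 CPM was the only one between neighbours to exceed the larger of their SDs. For Cdkn1c, Cdkn2a and Cdkn2b all 4 primary groups stood above all 4 allograft groups, and for Cdkn2d the reverse held. The Cdkn2a means ran from 919 to 525 CPM in the primary groups and from 359 to 168 CPM in the allografts. Steps beyond the larger SD lay between 525 and 359 CPM and between the 0 Gy anti-PD-1 (310.2) and 20 Gy isotype (199.7) allografts. The Cdkn2b means ran from 88.3 to 54.5 CPM and from 37.0 to 20.97 CPM, and those of Cdkn2d from 19.2 to 13.9 CPM and from 25.3 to 22.2 CPM (primary groups, then allografts). In neither gene did any neighbours differ beyond their spread, nor in Cdkn2c, whose means ran from 82.6 CPM (allograft, 0 Gy isotype) to 39.4 CPM (primary, 20 Gy isotype). The Cdkn1c means ran from 154 to 78.2 CPM in the primary groups and from 29.2 to 16.4 CPM in the allografts, and only the step between the 0 Gy and 20 Gy isotype allografts (23.4 and 17.4 CPM) exceeded the larger SD. The Cdkn1b means ran from 121.5 CPM (allograft, 0 Gy isotype) to 62.7 CPM (primary, 20 Gy anti-PD-1), with such a step only between the 0 Gy and 20 Gy anti-PD-1 allografts (114.6 and 87.0 CPM).

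**Figure D1:**
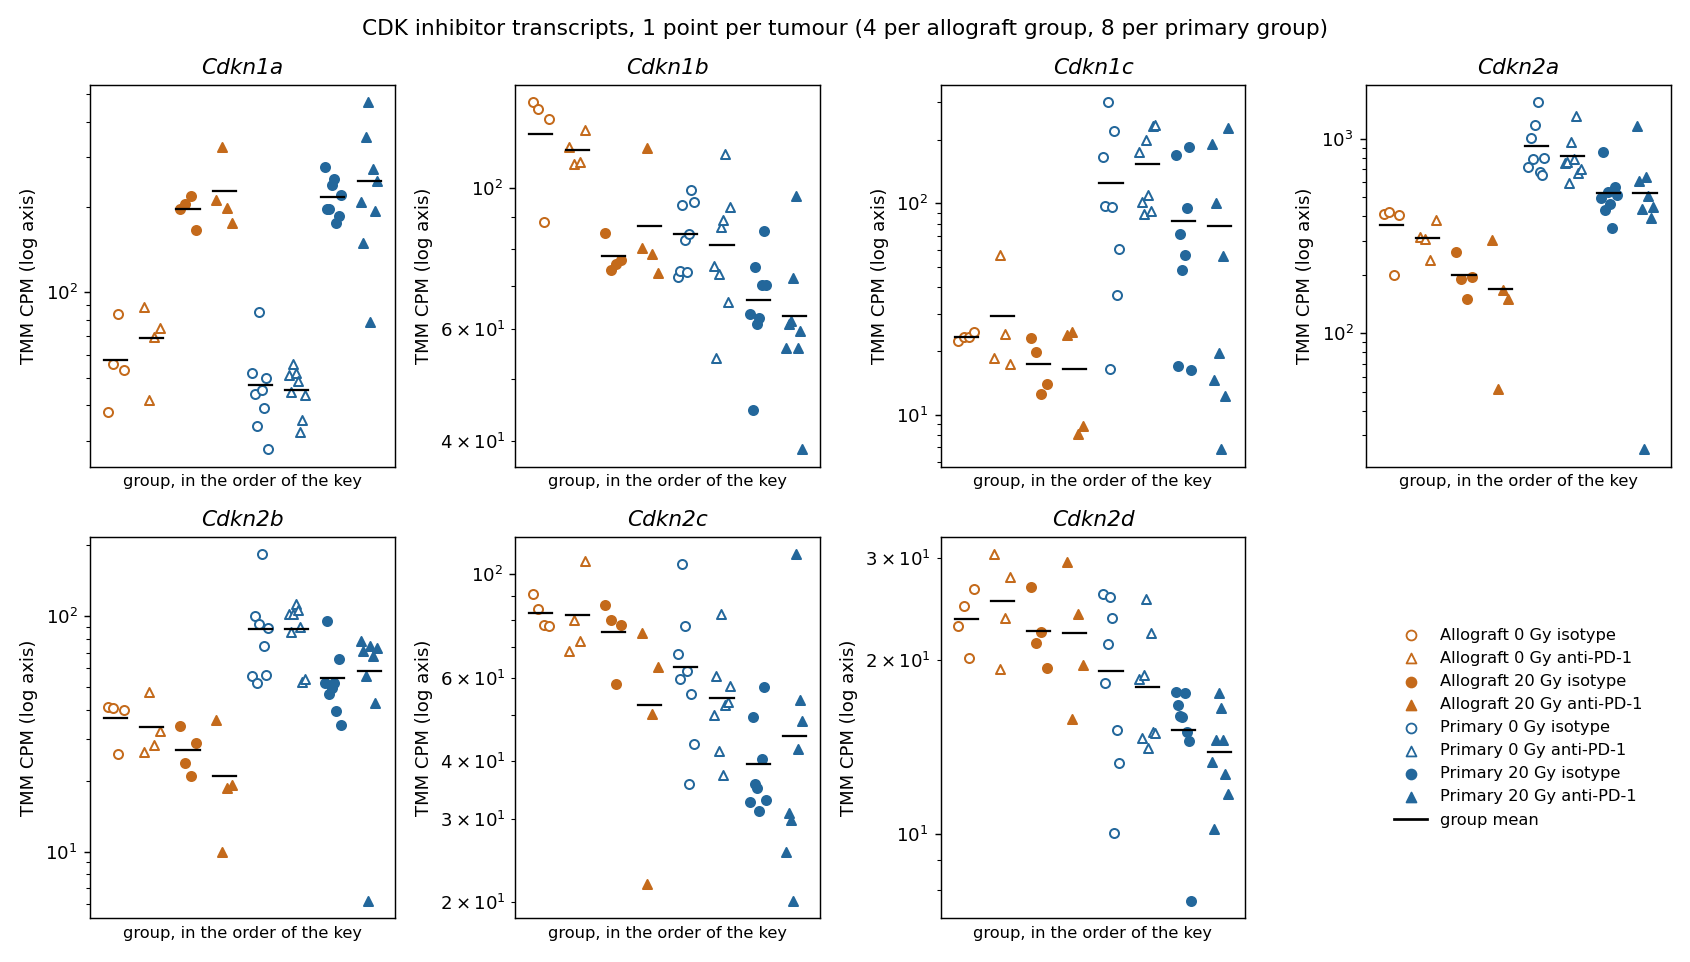
TMM-scaled CPM (log axis) of the 7 members in each of 48 tumours, by group, with group means as black bars. For Cdkn1a irradiated tumours (filled) lie above unirradiated ones (open) except primary 20 Gy anti-PD-1 replicate 5 (78.8 CPM), which is below 3 unirradiated tumours, and primary tumours (blue) mostly lie above allografts (orange) for Cdkn1c, Cdkn2a and Cdkn2b.

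Cdkn1a, which arrests the cycle after DNA damage, rose after 20 Gy in both tumour kinds and both antibody arms. With isotype the 4 unirradiated allografts held 37.9, 56.1, 83.6 and 53.025 CPM (mean 57.7 ± 19.1, SD, n = 4) and the 4 irradiated ones 197, 205, 219 and 166 CPM (197 ± 22.6). With anti-PD-1 the unirradiated allografts held 88.6, 41.8, 69.6 and 75.1 CPM (68.8 ± 19.7) and the irradiated ones 212, 326, 199 and 176 CPM (228 ± 67.0). The dose groups did not overlap in either arm. The primary isotype tumours ran from 27.96 through a median of 44.6 to 85.6 CPM at 0 Gy (47.2 ± 17.4, n = 8) and from 176 through 209 to 276 CPM at 20 Gy (218 ± 35.2, n = 8). Those given anti-PD-1 ran from 32.1 through 46.4 to 55.8 CPM at 0 Gy (45.3 ± 8.22) and from 78.8 through 228 to 469 CPM at 20 Gy (247 ± 121.6). Here too the dose groups were apart within each arm, although the lowest irradiated tumour, replicate 5, was below the highest unirradiated isotype tumour and below 2 unirradiated allografts (83.6 and 88.6 CPM).

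The log2 fold change of Cdkn1a was 1.79 (SE 0.26, 3.47-fold) in the isotype allografts and 1.75 (SE 0.26, 3.35-fold) in the anti-PD-1 allografts, with adjusted p of 0.00174 and 0.00483 (edgeR quasi-likelihood test, Benjamini-Hochberg over all genes). In the primary tumours it was 2.22 (SE 0.25, 4.66-fold, adjusted p 1.95e-06) with isotype and 2.46 (SE 0.25, 5.49-fold, adjusted p 3.76e-07) with anti-PD-1. The test called 5.14% of 17746 genes in the isotype and 3.96% in the anti-PD-1 allografts, and 14.5% and 7.92% of 17770 genes in the primary tumours in the same order. With only the 2 anti-PD-1 groups in the fit, the allograft value of 1.75 had an adjusted p of 0.0570. Without the 3 tumours the values were 1.78, 1.52, 2.22 and 2.40, and all 4 calls held.

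Against these, the other 6 members had negative log2 fold changes in all 4 comparisons of 20 Gy with 0 Gy, and of those 24 values only that of Cdkn1b in the isotype allografts passed the test. The median over the 7 members was -0.41 and -0.61 in the allografts and -0.57 and -0.36 in the primary tumours (isotype, then anti-PD-1). The median over all genes tested lay between -0.02 and 0.02, and 47.7 to 51.8% of genes were negative. With Cdkn1a, 2 of 7 members were called in the isotype allografts and 1 of 7 in each other comparison. The 24 negative values are not independent, because the members share libraries and some vary together. Some lay well within their error, such as Cdkn2d (-0.05, SE 0.18) and Cdkn2c (-0.11, SE 0.28) in the isotype allografts. Their shared sign is therefore a description and no test of the members as a set.

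**Figure D2:**
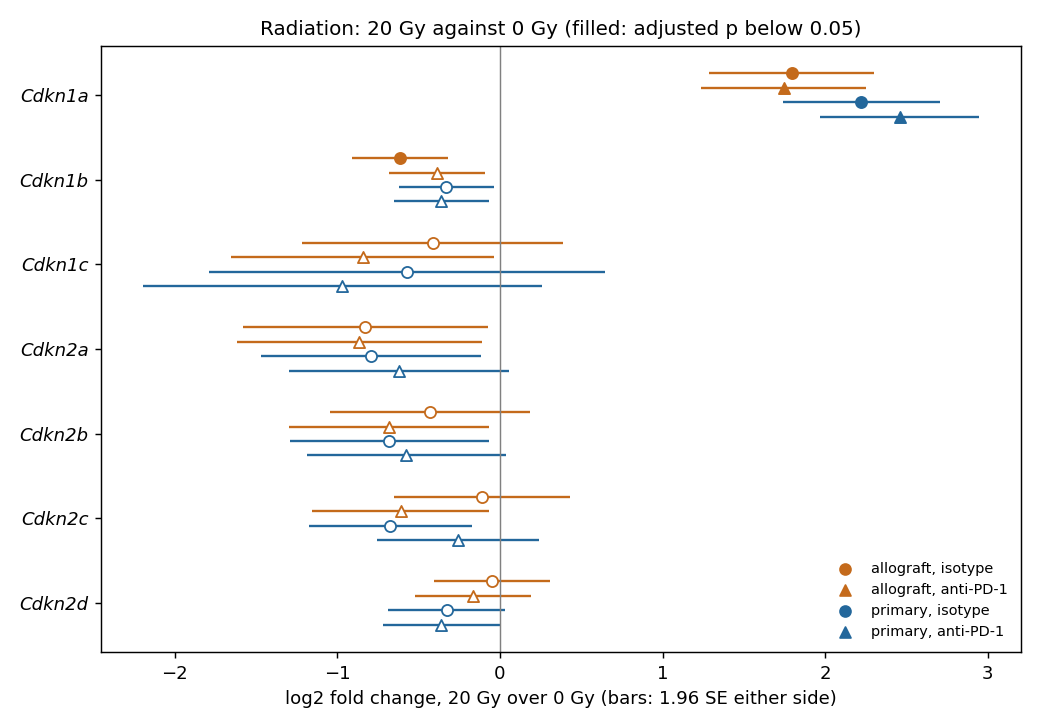
Log2 fold change of each member at 20 Gy over 0 Gy in 4 comparisons (orange allografts, blue primary tumours; circles isotype, triangles anti-PD-1). Bars span 1.96 SE either side and filled symbols passed the test; Cdkn1a stands at 1.75 to 2.46 while the other members lie below 0.

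Cdkn1b restrains cyclin E and Cdk2 in resting cells. In the isotype allografts it held 136.3, 133.1, 88.4 and 128.05 CPM at 0 Gy (121.5 ± 22.3) and 84.8, 74.1, 75.9 and 77.0 CPM at 20 Gy (78.0 ± 4.73). All 4 irradiated tumours were below all 4 unirradiated ones, and Cdkn1b fell by 0.62 on the log2 scale (SE 0.15, edgeR adjusted p 0.0278). This call was close to the threshold: it was lost on leaving out any of the 8 tumours except replicate 3 of the 0 Gy group, the lowest of its group (adjusted p 0.0531 to 0.107), without a filter on low counts (0.0686), in the fit of all 48 tumours (0.0791) and with the first digit of the animal identifier as a covariate (0.169). That digit, whose meaning the labels do not give, was 5 in 4 of 4 unirradiated and 1 of 4 irradiated isotype allografts. In the anti-PD-1 allografts the levels were 116.03, 109.001, 109.9 and 123.4 CPM at 0 Gy against 80.4, 115.6, 78.7 and 73.4 CPM at 20 Gy, a log2 fold change of -0.39 (SE 0.15, adjusted p 0.170). There 3 of the 4 irradiated tumours lay below the unirradiated range, and the exception was replicate 2, 1 of those 3 tumours. Without it the value was -0.56 with an adjusted p of 0.0433. The primary tumours gave -0.33 (SE 0.15, adjusted p 0.138) and -0.36 (SE 0.15, adjusted p 0.135), with overlapping ranges in both arms. The second of these passed without replicate 5 of the irradiated group (-0.48, adjusted p 0.0263), 1 of those 3 tumours, and without all of them (-0.54, adjusted p 0.0202).

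Cdkn1c, an imprinted gene, varied widely from tumour to tumour in the primary groups. Primary tumours at 0 Gy with isotype ran from 16.4 through 96.4 to 300.5 CPM, and those at 20 Gy from 16.3 through 64.2 to 185 CPM. With anti-PD-1 they ran from 88.6 through 142.1 to 233 CPM at 0 Gy and from 6.86 through 37.9 to 226 CPM at 20 Gy. The dose groups overlapped in both arms, and the log2 fold changes of -0.57 and -0.97 came with an SE of 0.62 and 0.63. In the allografts they were -0.41 and -0.85 (SE 0.41 each), and no Cdkn1c value passed the test after radiation.

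Cdkn2a was lower on average after 20 Gy in all 4 pairs of groups, without passing the test in any of them in the fit of all 4 groups of a kind. The isotype allografts held 411, 421, 199 and 407 CPM at 0 Gy and 262, 190.2, 151 and 195 CPM at 20 Gy. The anti-PD-1 allografts held 313, 306, 238 and 384 CPM at 0 Gy and 304, 52.0, 167 and 151 CPM at 20 Gy. A single low unirradiated tumour (replicate 3) produced the overlap in the first arm, and a single high irradiated one (replicate 1) in the second. Primary tumours ran from 651 through 792 to 1541 CPM at 0 Gy and from 349 through 505 to 856 CPM at 20 Gy with isotype. With anti-PD-1 they ran from 592 through 754 to 1303 CPM at 0 Gy and from 25.4 through 479 to 1163 CPM at 20 Gy. The log2 fold changes were -0.83, -0.86, -0.79 and -0.62 (isotype and anti-PD-1 allografts, then isotype and anti-PD-1 primary tumours), each with an SE of 0.34 to 0.38 and an adjusted p of 0.121 to 0.280.

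Cdkn2b, a member known to respond to TGF-beta, had log2 fold changes of -0.43, -0.68, -0.68 and -0.58 in the same order (SE 0.31, adjusted p 0.145 to 0.519). Cdkn2c gave -0.11, -0.61, -0.67 and -0.26, of which the primary isotype value came closest to the threshold (SE 0.25, adjusted p 0.0731). Its primary isotype tumours ran from 35.8 through 61.0 to 105.2 CPM at 0 Gy and from 31.3 through 35.3 to 57.5 CPM at 20 Gy. In that comparison Cdkn2a (-0.74, adjusted p 0.0224) and Cdkn2c (-0.62, 0.0483) passed with only the 2 groups in the fit, and Cdkn2c with all 48 tumours (-0.69, 0.0413) and without replicate 6 of the 0 Gy group (-0.76, adjusted p 0.0441). Without the 3 tumours Cdkn2a (-0.80), Cdkn2b (-0.68) and Cdkn2c (-0.68) all passed there, although none of those tumours belongs to the isotype groups. These values hardly moved from those with all tumours (-0.79, -0.68 and -0.67), and the 4 groups of a kind share 1 estimate of the spread. The cause of these gains was not tested. Cdkn2d, the lowest member per kilobase in the primary tumours, gave -0.05, -0.17, -0.33 and -0.36 (SE 0.18).

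The radiation effect was also averaged over the antibody arms of each kind, a comparison added after the results by arm had been seen. In the allografts it called 2 of 7 members, Cdkn1a at 1.77 (SE 0.18, adjusted p 4.71e-05) and Cdkn1b at -0.50 (SE 0.11, adjusted p 0.00517), where 13.7% of genes were called. Cdkn2a, at -0.85, had an adjusted p of 0.0517, and it passed without replicate 3 of the 0 Gy isotype group (-0.94) or without replicate 1 (-1.06) or 2 (-0.71) of the 20 Gy anti-PD-1 group. Cdkn2b, at -0.56, passed without that replicate 1 (-0.75). In the primary tumours it called 5 of 7 members where 26.3% of genes were called. These were Cdkn1a at 2.34 (SE 0.17, adjusted p 1.85e-10), Cdkn1b at -0.35 (SE 0.11, 0.0154), Cdkn2a at -0.71 (SE 0.24, 0.0308), Cdkn2b at -0.63 (SE 0.22, 0.0348) and Cdkn2d at -0.34 (SE 0.13, 0.0476). Cdkn2c, at -0.47, missed with an adjusted p of 0.0532 and passed in 6 of the 32 fits that left out a single tumour, most clearly without replicate 5 of the 20 Gy anti-PD-1 group (-0.63, adjusted p 0.00186). On leaving out single tumours, Cdkn1a and Cdkn1b passed in all 32 fits. Cdkn2a lost its call without replicate 5 of the 0 Gy isotype, replicate 6 of the 0 Gy anti-PD-1 or replicate 6 of the 20 Gy isotype group (adjusted p 0.0503 to 0.0560), Cdkn2b in 12 fits and Cdkn2d in 24. Markers of other cells moved in the same averaged comparison: 8 of 10 skeletal muscle, 4 of 5 tested myogenic, 7 of 10 macrophage and 4 of 7 tested neutrophil markers rose, and 10 of 12 proliferation genes fell. The leukocyte marker Ptprc (0.98) also rose there, and the mesenchymal marker Vim (-0.74) fell. In the allografts 0 of 10 skeletal muscle and 0 of 7 myogenic markers passed in edgeR, 6 of 10 macrophage markers rose and 4 of 12 proliferation genes fell. Ptprc (1.53), the endothelial marker Kdr (1.01) and the neutrophil marker Csf3r (1.32) rose in the allografts too, while Camp (-4.12), also a neutrophil marker, fell. With the skeletal muscle level as a covariate 4 of the 5 primary calls held and Cdkn2d had an adjusted p of 0.0585. The part of the other cell types was not tested.

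The other genes of the pathway were read in the same 4 comparisons (isotype and anti-PD-1 allografts, then isotype and anti-PD-1 primary tumours) from lists of 7 to 12 genes. Of 12 p53 targets other than Cdkn1a, 3, 5, 6 and 5 rose and 0 fell, and their median log2 fold changes were 0.45, 0.83, 0.51 and 0.42. Gdf15, a secreted stress factor, rose by 3.25 (SE 0.40, edgeR adjusted p 0.000909) and 3.28 (SE 0.40) in the allografts and by 1.89 (SE 0.41) in the isotype primary tumours. Sesn2 (1.14 and 0.93) and the death gene Bbc3 (1.06 and 1.004) rose in the allografts, Bax (0.74) in the isotype primary tumours, and Mdm2 (0.52), which marks p53 for degradation, and Ccng1 (1.36) in the anti-PD-1 primary tumours. Trp53inp1 rose in both primary comparisons (0.99 and 1.203).

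Of 12 cyclins and cyclin-dependent kinases, 0 rose and 1, 2, 2 and 2 fell, with medians of -0.28, -0.37, -0.41 and -0.53. Ccnb2, a mitotic cyclin, fell in all 4 (-0.88, -1.01, -1.06 and -1.09), and Ccna2 in the last 3 (-0.93, -1.003 and -0.98). Of 12 proliferation genes 0, 1, 7 and 5 fell and 0 rose, with medians of -0.17, -0.66, -0.77 and -0.74. Bub1 (-0.84) fell in the anti-PD-1 allografts and Kif11 (-0.97 and -0.83) and Birc5 (-0.80 and -0.87) in the primary tumours. Of 10 genes of the RB family and E2F factors only E2f4 (-0.45, primary isotype) passed, and of 12 regulators of inhibitor levels only Tgfb1 (0.70, allograft isotype). Medians of these lists ran from -0.33 to 0.11 and from -0.23 to 0.04.

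Markers of other cells moved in the same comparisons. Of 10 macrophage markers 2, 2, 4 and 3 rose, among them Fcgr1 (1.58, 1.56, 1.75 and 1.26) and Cd68 (0.89, 0.89, 0.68 and 0.95), and the list medians were 0.90, 0.87, 0.67 and 0.57. Macrophage marker sums were 1784 to 2631 CPM in the isotype allografts at 0 Gy and 3123 to 5019 CPM at 20 Gy, and 1849 to 3633 against 2311 to 4580 CPM in the isotype primary tumours. With anti-PD-1 they were 1426 to 3417 against 3169 to 6084 CPM in allografts and 1669 to 3314 against 928 to 6140 CPM in primary tumours, so that the dose groups overlapped in all but the isotype allografts. Of 10 leukocyte and T cell markers only Ptprc rose (1.59, 1.47 and 1.09; 0 in the anti-PD-1 primary tumours), with list medians of 0.17, 0.08, 0.80 and 0.22. Of 8 neutrophil markers (7 tested in the primary tumours) 0, 1, 2 and 3 rose (medians -0.37, -0.83, 2.50 and 2.12), with Csf3r (1.41, 1.96 and 1.73) in 3 comparisons. Kdr, an endothelial marker, rose in the isotype allografts (1.22; 1 of 9, and 0 of 9 in the other comparisons; medians 0.37, 0.13, -0.51 and 0.28). Of 9 mesenchymal and sarcoma markers Vim fell in the primary tumours (-0.72 and -0.76), with medians of 0.21, -0.51, -0.44 and -0.22. Of the 10 skeletal muscle markers 0 passed in any single arm in edgeR, against 8 in the primary average given above (medians -0.64, 0.07, 2.20 and 2.73), and of the 7 myogenic markers (5 tested in the primary tumours; medians 0.53, 0.14, 1.35 and 3.82) only Myh3 (4.94) and Mymk (4.87) rose in the anti-PD-1 primary tumours. With the mean level of the skeletal muscle list as a covariate Cdkn1a stood at 1.86, 1.75, 2.10 and 2.38, and all 4 calls held. The part of the other cell types in the result was not tested.

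Anti-PD-1 was compared with isotype at each dose, and no member passed the edgeR test. At 0 Gy the log2 fold changes ran from -0.23 to 0.32 in the allografts and from -0.21 to 0.32 in the primary tumours, and at 20 Gy from -0.53 to 0.18 and from -0.12 to 0.20. In each of these 4 comparisons 0 of 7 members passed, 0 had an unadjusted p below 0.05, and DESeq2 called 0. Background calls were 0.0% in all 4, with 299, 682, 412 and 1443 genes at an unadjusted p below 0.05 (allografts at 0 and 20 Gy, then primary tumours at 0 and 20 Gy). For Cdkn1a the 1.96-SE interval of the antibody effect at 20 Gy spanned -0.31 to 0.67 for allografts and -0.28 to 0.64 for primary tumours. For Cdkn1c in the primary tumours it was wider, -0.90 to 1.53 at 0 Gy and -1.30 to 1.14 at 20 Gy. For Cdkn2c in the allografts at 20 Gy it spanned -1.08 to 0.01. The data thus allow an antibody effect anywhere in those spans, and somewhat beyond them, since 1.96 SE is narrow for groups this small.

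The radiation response did not differ by antibody beyond its error. The interaction of dose with antibody for Cdkn1a was -0.05 (interval -0.74 to 0.65) in the allografts and 0.24 (interval -0.42 to 0.89) in the primary tumours. No member passed (0 of 7 in each kind, 0 at an unadjusted p below 0.05 and 0 by DESeq2), and neither did any other gene in edgeR (0.0% in each kind; 269 and 756 genes at an unadjusted p below 0.05). Both treatments together, against 0 Gy with isotype, gave Cdkn1a values of 1.98 in the allografts (SE 0.26, adjusted p 0.000819) and 2.40 in the primary tumours (SE 0.25, adjusted p 6.04e-07). These comparisons share their control tumours with those of radiation alone, whose values were 1.79 and 2.22. Cdkn1a was the only 1 of 7 members called by edgeR in each, where 9.66% and 13.8% of genes were called, and DESeq2 called 3 members for allografts and 1 for primary tumours. Cdkn1b stood at -0.49 (adjusted p 0.0552) and -0.41 (0.0598), and Cdkn2a at -1.09 (0.0908) and -0.79 (0.121). In the allografts Cdkn1b passed without replicate 3 of the controls (-0.61) or replicate 2 of the treated group (-0.63), and Cdkn2a without that control (-1.29) or treated replicate 1 (-1.53), where Cdkn2b passed too (-1.203). In the primary tumours Cdkn1b (-0.53) and Cdkn2c (-0.81) passed without treated replicate 5, Cdkn2a without treated replicate 1 (-1.04) and Cdkn2d without control replicate 6 (-0.55). Markers of other cells moved in both comparisons too. Fcgr1 (1.92 in allografts, 1.37 in primary tumours), Ptprc (1.87 and 1.08) and Csf3r (1.63 and 2.45) rose, as did Myh3 (4.41) in the primary tumours. The proliferation gene Birc5 fell (-0.74 and -0.99), and Vim fell in the primary tumours (-0.82). The part of these cells was not tested.

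The response to radiation was compared between the kinds by an interaction over all 48 tumours. For Cdkn1a it was 0.44 with isotype (interval -0.32 to 1.199) and 0.72 with anti-PD-1 (interval -0.05 to 1.48), positive where the primary tumours rose more, with adjusted p of 0.674 and 0.991. No member passed in either arm, 0 reached an unadjusted p of 0.05 and 0 were called by DESeq2, where 0.00517% and 0.0% of 19327 genes were called.

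Primary tumours held more Cdkn2a, Cdkn2b and Cdkn1c than allografts. Without radiation and with isotype, Cdkn2a averaged 919 ± 309 CPM (n = 8) against 359 ± 107.1 CPM (n = 4), and every primary tumour was above every allograft. The difference was 1.34 on the log2 scale (SE 0.28, edgeR adjusted p 0.0106). Cdkn2b averaged 88.1 ± 42.9 against 37.0 ± 7.35 CPM (1.24, SE 0.32, adjusted p 0.0279), again without overlap. Cdkn1c averaged 124.2 ± 97.8 against 23.4 ± 1.01 CPM (2.41, SE 0.66, adjusted p 0.0360), with the lowest primary tumour below the allografts. Cdkn1b was lower in the primary tumours, at 84.4 ± 10.7 against 121.5 ± 22.3 CPM (-0.53, SE 0.14, adjusted p 0.0351). Here 4 of 7 members and 10.0% of 17357 genes were called.

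With anti-PD-1 at 0 Gy the same 3 members were higher, Cdkn1c by 2.42 (SE 0.43), Cdkn2a by 1.43 (SE 0.22) and Cdkn2b by 1.41 (SE 0.25), where 8.94% of genes were called. At 20 Gy with isotype Cdkn2a (1.45, SE 0.23) and Cdkn2b (1.07, SE 0.25) were higher and Cdkn2c (-0.89, SE 0.17) lower in the primary tumours, where 4.76% of genes were called. Cdkn1c, at 2.30, missed there with an adjusted p of 0.0646 in edgeR and passed with DESeq2 (2.29, adjusted p 0.00211). At 20 Gy with anti-PD-1, 0 of 7 members and 0.00566% of genes passed, although 5 members had an unadjusted p below 0.05 and DESeq2 called 1. The values there were 2.27 for Cdkn1c, 1.64 for Cdkn2a and 1.48 for Cdkn2b. In the fit of all 48 tumours Cdkn2a (1.65), Cdkn2b (1.49) and Cdkn2d (-0.68) passed, and without replicate 4 of the primary group Cdkn2b alone did (1.69, adjusted p 0.0295). Cdkn1a did not pass in any of the 4 comparisons, with values of -0.57 to 0.19, except that without allograft replicate 2 the value at 0 Gy with anti-PD-1 was -0.75 (adjusted p 0.0213).

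**Figure D3:**
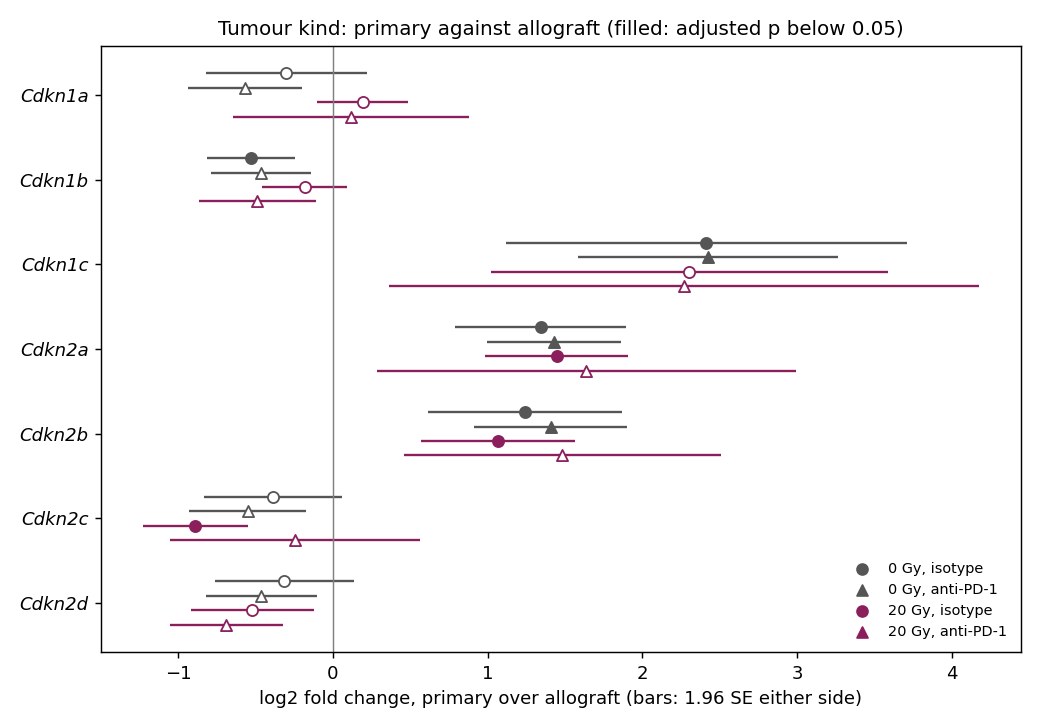
Log2 fold change of each member in primary tumours over allografts in 4 treatment settings (grey 0 Gy, purple 20 Gy; circles isotype, triangles anti-PD-1), with bars of 1.96 SE either side and filled symbols for calls. Cdkn1c, Cdkn2a and Cdkn2b lie between 1.07 and 2.42, and Cdkn1b, Cdkn2c and Cdkn2d below 0.

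Markers of other cells differed between the kinds in the same comparisons. At 0 Gy 5 of 10 leukocyte and T cell markers were lower in the primary tumours in each arm, among them Cd3d (-2.26 with isotype, -1.78 with anti-PD-1) and Cd8a (-2.19 and -2.02), and the list medians were -1.44 and -1.29 where the median over all genes was 0.01 and 0.02. Of the neutrophil markers 3 of 7 and 2 of 8 were lower (medians -2.05 and -2.26), such as Mmp8 (-2.66 and -3.06), and of the mesenchymal and sarcoma markers 2 and 1 of 9 were higher (medians 0.65 and 0.80), among them Col1a2 (1.67 and 1.33). Of the 5 myogenic markers tested 0 passed with isotype in edgeR (median -2.69) and 5 were lower with anti-PD-1 (median -3.96), such as Myh3 (-4.14). At 20 Gy 1 marker in all, Mrc1 of the macrophage list, was called (1.503, isotype), and it was also higher at 0 Gy with isotype (1.43). With the skeletal muscle level as a covariate the counts of members called were 4, 3, 3 and 0, as without it. The part of other cell types was not tested.

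Several of these calls were close to the threshold. At 0 Gy with isotype the Cdkn1b call was lost on leaving out allograft replicate 1, 2 or 4 or primary replicate 1 or 2 (adjusted p 0.0542 to 0.114) and without a filter on low counts. The Cdkn1c call was lost without any 1 of the 4 allografts (values of 2.38 to 2.45) or primary replicate 1 (2.35) or 6 (2.21), and the Cdkn2b call without any 1 of the 4 allografts (1.09 without replicate 3 and 1.28 to 1.29 without the others), while Cdkn2a passed in all 12 such fits. At 20 Gy with isotype Cdkn2b was lost without allograft replicate 2, 3 or 4, with Xist as a covariate (adjusted p 0.0529) and in the fit of all 48 tumours (0.115), and Cdkn2c without replicate 4 (0.0542), while Cdkn1c passed without primary replicate 2 (2.46) or 8 (2.48). At 0 Gy with anti-PD-1 Cdkn1b passed without primary replicate 6 (-0.54), and Cdkn2c (-0.66) and Cdkn2d (-0.55) without primary replicate 4. With 1 line behind all allografts, features of the line and of transplantation cannot be told apart. The identifier digit was 5 in 11 of 16 allografts and 2 of 32 primary tumours, so digit and kind cannot be fully told apart. It separates the 0 Gy isotype groups fully, and no fit with it could be made there. With anti-PD-1 it was 5 in 3 of 4 allografts and 1 of 8 primary tumours at 0 Gy, and in 3 of 4 and 0 of 8 at 20 Gy. At 20 Gy with isotype it was 5 in 1 of 4 and 1 of 8. Under the 7 other settings (no tumour left out) the 20 Gy anti-PD-1 values ran from 0.83 to 1.72 for Cdkn2a and from 0.75 to 1.52 for Cdkn2b. With that digit as a covariate at 0 Gy with anti-PD-1, Cdkn2b stood at 0.92 and lost its call.

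Cdkn2a and Cdkn2b varied together from tumour to tumour. Taken as deviations of log2(CPM + 0.5) from the group mean, their Pearson r was 0.888 over 16 allografts (Spearman rho 0.785, permutation within groups, adjusted p 0.0214) and 0.889 over 32 primary tumours (rho 0.798, adjusted p 0.00021). The raw p in the primary tumours, 1e-05, is the smallest that 100000 resamples can give. Without the 2 tumours farthest from the median r was 0.703 and 0.746. The lowest pair of values was that of primary 20 Gy anti-PD-1 replicate 4, with 25.4 CPM of Cdkn2a and 6.17 of Cdkn2b. Allograft 20 Gy anti-PD-1 replicate 2, with 52.0 and 9.95 CPM, was the lowest allograft in both. Mtap, which encodes an enzyme of methionine salvage and lies beyond the 3′ end of Cdkn2a (ENSMUSG00000062937, chr4:89137122-89181081, looked up after the Cdkn2a values were seen), was at 32.7 and 66.4 CPM in these tumours, the lowest of the primary tumours and of the allografts.

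**Figure D4:**
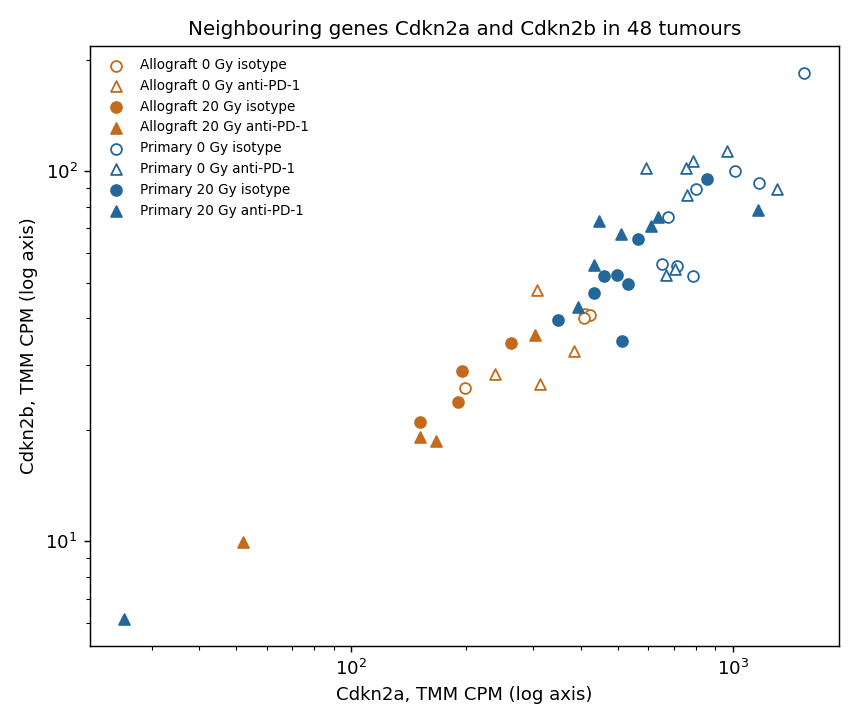
Cdkn2a (x) against Cdkn2b (y), both as TMM-scaled CPM on log axes, 1 point per tumour and 1 symbol per group. Allografts and primary tumours form a band, with primary replicate 4 of the 20 Gy anti-PD-1 group at its lower end (25.4 and 6.17 CPM).

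Of the 21 pairs of members, 4 passed in the allografts and 1, the pair just described, in the primary tumours. The others in the allografts were Cdkn2a with Cdkn2c (r 0.866, rho 0.738, adjusted p 0.0191, r without the 2 farthest tumours 0.561), Cdkn2a with Cdkn2d (r 0.771, rho 0.744, adjusted p 0.0340, 0.530 without them) and Cdkn1a with Cdkn2b (r -0.693, rho -0.771, adjusted p 0.0475, -0.597 without them). Cdkn1c passed with no other member in either kind.

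Among 14406 genes averaging 1 CPM or more, the gene whose deviations over the 48 tumours were most like those of Cdkn2a was Cdkn2b (r 0.891), followed by Mtap (0.863) and Nradd (0.855). After Cdkn2a, Cdkn2b was nearest to A830082K12Rik (0.787) and Mpzl1 (0.782). Nearest to Cdkn1a were Hist1h4i (0.761), Barx2 (0.732) and Ehd4 (0.727), and nearest to Cdkn1b Gm10033 (0.731), Zfp944 (0.7099) and Zfp760 (0.684). For Cdkn1c the nearest was Gm44732 (0.942), which overlaps it on the other strand, before Cgn (0.506) and C130036L24Rik (0.499). Cdkn2c was most like Sdc1 (0.755), Gm26682 (0.733) and Gm48284 (0.728), and Cdkn2d most like Ubald2 (0.779), Hras (0.756) and Pgp (0.750). These values are descriptions over tumours that share the same libraries.

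The members were also set against 8 lists, the 7 marker lists and the proliferation list, a step added after the marker sums had been seen. Of the 56 relations in each kind, 0 passed by Pearson's r for allografts and 9 for primary tumours, while by Spearman's rho 4 passed for allografts and 2 for primary tumours. The count by kind thus depends on the measure. Adjusted p given first are those of r. Cdkn1a went with the macrophage list (r 0.7099, rho 0.435, adjusted p 0.0235) and the myogenic list (r 0.647, rho 0.612, 0.0245) and against the proliferation list (r -0.541, rho -0.466, 0.0359). Without the 2 farthest tumours these values were 0.370, 0.511 and -0.244. Cdkn2a went against the endothelial (r -0.559, rho -0.543, adjusted p 0.0235) and skeletal muscle lists (r -0.574, rho -0.431, 0.0235) and with proliferation (r 0.559, rho 0.325, 0.0361), at -0.486, -0.389 and 0.361 without the 2 farthest. The remaining relations were Cdkn1b against the mesenchymal and sarcoma list (r -0.577, rho -0.383, adjusted p 0.0287, -0.519 without the 2 farthest), Cdkn2c against macrophage (r -0.642, rho -0.383, 0.0359, -0.276) and Cdkn2d with neutrophil (r 0.471, rho 0.443, 0.0359, 0.379). The relations of Cdkn1a with macrophage and proliferation and of Cdkn2c with macrophage thus rest largely on the 2 farthest tumours. Of these 9 only Cdkn1a with the myogenic list and Cdkn2a against the endothelial list also passed by rho (adjusted p 0.0325 each). In the allografts the 4 relations that passed by rho each had an adjusted p of r of 0.0536. They were Cdkn2c with proliferation (r 0.912, rho 0.768, adjusted p of rho 0.0374, r without the 2 farthest tumours 0.740), Cdkn2b against the leukocyte and T cell list (r -0.739, rho -0.844, 0.0146, -0.738) and against the myogenic list (r -0.645, rho -0.791, 0.0177, -0.693), and Cdkn2a against the myogenic list (r -0.609, rho -0.791, 0.0146, -0.691).

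**Figure D5:**
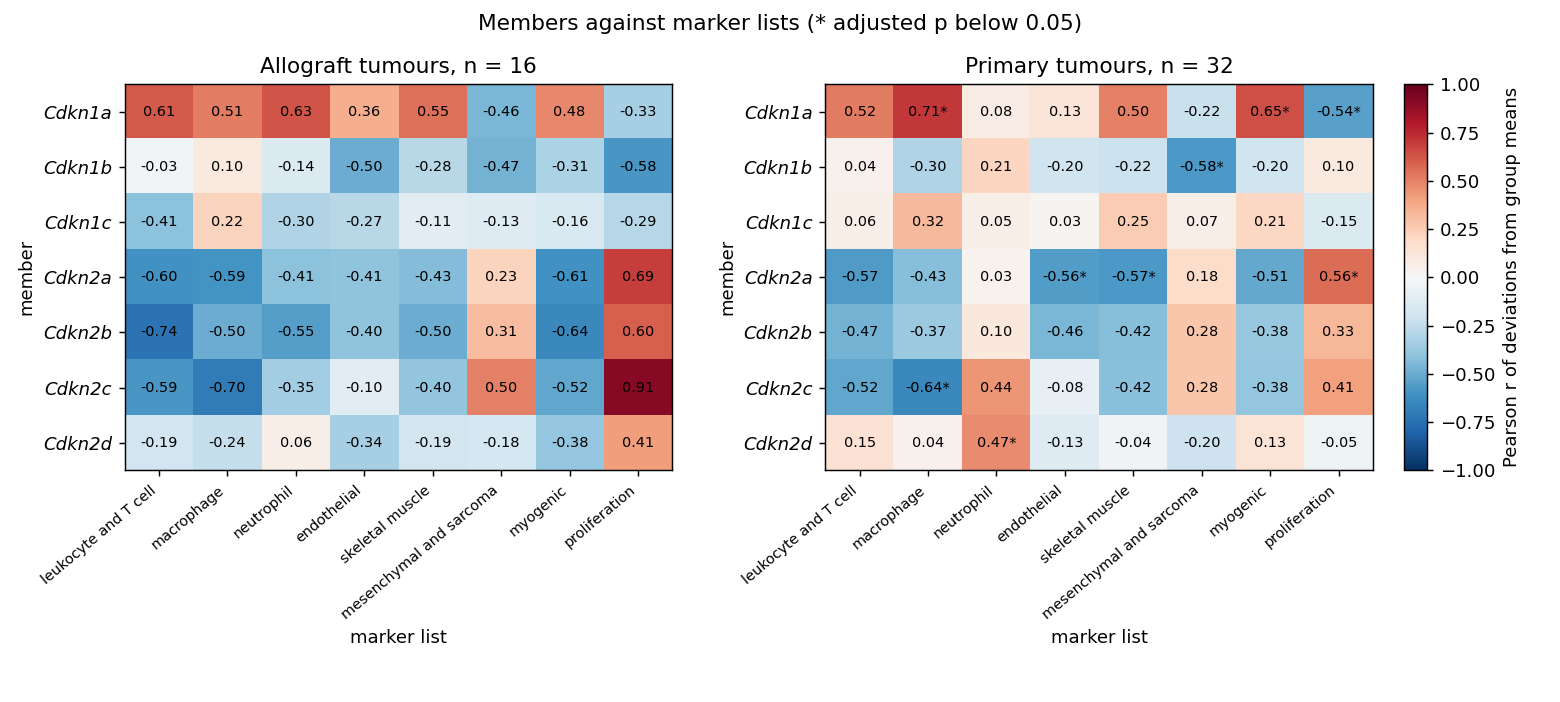
Pearson r between each member and the mean level of each list, as deviations from group means, in 16 allografts (left) and 32 primary tumours (right), with red for positive r, blue for negative and a star for an adjusted p of r below 0.05. Stars stand in 9 of 56 fields for the primary tumours and 0 of 56 for the allografts, whereas by Spearman's rho 2 and 4 relations passed.

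The 3 tumours with extreme member values also lay at the ends of several of these lists. Primary 20 Gy anti-PD-1 replicate 4 had the most skeletal muscle (77119.5 CPM summed), leukocyte (712 CPM) and macrophage marker RNA (6140.1 CPM) of its group and the least proliferation RNA (394 CPM), beside the highest Cdkn1a of all tumours at 469 CPM. Replicate 5 had the least leukocyte (67.7 CPM) and macrophage RNA (928 CPM) of its group and the most proliferation RNA (1258 CPM), beside 78.8 CPM of Cdkn1a and the highest Cdkn2c of the primary tumours at 110.4 CPM. Allograft 20 Gy anti-PD-1 replicate 2 had the most macrophage RNA of the allografts (6084 CPM) and the least proliferation RNA (463 CPM), beside the highest Cdkn1a allograft value of 326 CPM. The part of these cell mixtures in the members' differences was not tested.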

How the data were processed

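Counts per gene were deposited by the authors for 48 tumours. Per the labels' protocols, RNA with an integrity number above 7 went into stranded poly(A) libraries (KAPA, dUTP), and per the submitters' processing notes Trimmomatic 0.36, STAR, HTSeq and mm10 were used. The annotation and strand setting are not given in the sources used here. Totals were 31.8 to 54.0 M counts. Counts were tested with edgeR 4.0.16 (R 4.3.3): TMM, filterByExpr by group, quasi-likelihood test, Benjamini-Hochberg adjustment over all genes tested, calls at 0.05, and SE taken as the size of the log2 fold change over the root of F. Intervals span 1.96 SE either side. They are narrower than the edgeR test implies and can exclude 0 where its p is above 0.05. An example is Cdkn1c after radiation in the anti-PD-1 allografts (-1.65 to -0.04, unadjusted edgeR p 0.0579). Dose and antibody comparisons were fitted on the 4 groups of a kind (biological coefficient of variation 0.375 in allografts, 0.50 in primary tumours), kinds on their 2 groups, and kind by dose on all 48 tumours. There were 18 planned comparisons and 2 added ones. Co-variation used log2(CPM + 0.5), 100000 permutations within groups and adjustment over 21 pairs or 56 relations, and likeness used log2 CPM with a prior count of 2. The code was tested on simulated counts.

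The members and lists were chosen with earlier results of these data known. All 7 members are described, list genes are named as up to 3 called per list and comparison, by smallest p, and the 3 most alike genes per member are named. Exceptions chosen after their values were seen are Mtap and the 3 tumours left out together. Alternatives were DESeq2 (1.42.0), its size factors, no filter, other sets of tumours in the fit, covariates (identifier digit, skeletal muscle level, Xist level) and leaving out tumours. The labels do not say that replicates share a litter or day, and p-values measure the spread between these tumours.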

Additional observations from a re-analysis of the deposited data

Results flagged for a closer look

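The gap of the highest and lowest level to its neighbour was set against the whole range in each group of 4 or 8 tumours. By this measure (Dixon's criterion) 9 of 56 sets of a member and a group were flagged. The usual rate of about 1 in 20 assumes normal and independent values. These sets share tumours, some members vary together, and CPM was not put on a log scale. No excess over chance is therefore claimed.

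Cdkn2a and Cdkn2b were both low in replicate 3 of the 0 Gy isotype allografts, at 199 CPM against 407 CPM for the next tumour and at 25.96 against 40.0 CPM. Cdkn2b was high in replicate 5 of the primary 0 Gy isotype group, at 184 against 99.9 CPM. Cdkn2a was high in replicate 2 of the primary 20 Gy isotype group, at 856 against 565 CPM. Cdkn1a reached 85.6 CPM in replicate 4 of the primary 0 Gy isotype group, against 51.9 CPM for the next. Cdkn1b reached 115.6 CPM in replicate 2 of the allograft 20 Gy anti-PD-1 group, against 80.4 CPM. Cdkn1c reached 56.8 CPM in replicate 2 of the allograft 0 Gy anti-PD-1 group, against 24.1 CPM. Cdkn2c reached 110.4 CPM in replicate 5 of the primary 20 Gy anti-PD-1 group, against 53.9 CPM. Cdkn2d was at 7.65 CPM in replicate 8 of the primary 20 Gy isotype group, below 14.5 CPM for the next.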

How the results depend on the processing

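Settings other than leaving out single tumours moved the number of members called by over 1.5 times as follows. For radiation in the isotype allografts it went from 2 to 1 without a low-count filter, with the identifier digit or with all 48 tumours in the fit. In the anti-PD-1 allografts it went from 1 to 0 with only the 2 groups in the fit and to 2 without the 3 tumours first noticed for their values of these genes, and averaged over arms from 2 to 4 with the identifier digit. In the isotype primary tumours it went from 1 to 2 with all 48 tumours, 3 with only the 2 groups and 4 without the 3 tumours, and in the anti-PD-1 primary tumours from 1 to 2 without them. For both treatments it went from 1 to 3 with DESeq2, 2 with the identifier digit and 2 without the 3 tumours in the allografts, and to 2 with the digit, 3 with all 48 tumours and 3 without the 3 in the primary tumours. For primary tumours against allografts at 20 Gy with anti-PD-1 it went from 0 to 1 with DESeq2 and 3 with all 48 tumours. The causes were not tested.

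On leaving out single tumours, the count ran from 1 to 2 for radiation in each of the 4 arms, from 2 to 4 (allografts) and 2 to 6 (primary) averaged over arms, and from 1 to 3 for both treatments in either kind. Between the kinds it ran from 1 to 4 and 3 to 5 at 0 Gy (isotype, anti-PD-1) and from 1 to 4 and 0 to 1 at 20 Gy. Cdkn2d in the isotype allografts after radiation turned from -0.05 to 0.0107 with Xist as a covariate, passing in neither. The primary average call of Cdkn2d was lost with DESeq2 (adjusted p 0.0545), its size factors (0.0638), no filter (0.0621) and each covariate (0.0523 to 0.0591). Over the 7 members and 20 comparisons, 14 calls were lost and 31 gained among 1127 values under settings other than leaving out 1 tumour, and 65 were lost and 29 gained among 2184 values with 1 tumour left out. Levels under DESeq2 size factors moved by less than 1 SD in 56 of 56. No fit with the identifier digit was possible between kinds at 0 Gy with isotype. No paired analysis was possible because replicate numbers follow accession order only. With 4 tumours in an allograft group, small changes may go undetected.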
